A study of Rattus norvegicus with 24 samples.

Results

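The genes described here are 10 receptors and signalling proteins for double-stranded RNA, chosen by name because Poly I:C is a synthetic double-stranded RNA. Earlier results of these data were known when they were chosen. The 10 genes are the sensors Tlr3, Ifih1, Ddx58 and Eif2ak2, the adaptors Mavs and Ticam1, the kinase Tbk1, the transcription factor Irf3, and the NF-kB genes Nfkb1 and Nfkbia. Of these 10, 9 were among the 17420 genes of the deposited table, and Ticam1 was not analysed here. RNA sequencing had been performed on hippocampus and neocortex of 24 Sprague-Dawley rat pups on embryonic day 18, with both sexes combined. There were 4 groups of 6 pups, each with 3 pups from each of 2 litters. Poly I:C dams received 7.5 mg/kg and MAM dams 22 mg/kg (methylazoxymethanol acetate, a DNA methylating agent), both by intraperitoneal injection on gestational day 17, and Saline dams received saline on that day. Low Protein dams ate a diet with 6.1% protein from gestational day 11 to 18, and control rats an isocaloric diet with 20.3% protein. Whether the MAM, Poly I:C and Saline dams ate this control diet was not spelled out. Tissue was collected on gestational day 18, which was 18 hours after the injections. The dam, not the pup, was treated, so p-values over pups measure the spread between pups and may be too small.

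Cells detect double-stranded RNA at several sites. Tlr3 binds it in endosomes and signals through the adaptor Ticam1 (TRIF), whereas the cytosolic helicases Ifih1 (MDA5) and Ddx58 (RIG-I) signal through Mavs on mitochondria. Both routes activate the kinase Tbk1, which phosphorylates Irf3 to start interferon transcription, and both activate NF-kB, of which Nfkb1 encodes the p105/p50 subunit and Nfkbia the inhibitor IkB-alpha. Eif2ak2 (PKR) is a kinase that binds double-stranded RNA and halts translation. Ifih1, Ddx58, Tlr3 and Eif2ak2 are themselves targets of interferon, and Nfkbia is a target of NF-kB.

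Because interferon and NF-kB targets are compared below, the regions just upstream of 3 members and of Bst2 are shown with the motif that these factors read. Bst2 is not a member but the pathway gene with the lowest p in Poly I:C relative to saline. Only regions with a match are shown. The sequences are from RefSeq on GRCr8 (the reads had been aligned to rn6), run 5′ to 3′ over the 250 bases before the annotated start, and carry the match in capitals.
Ifih1 (chr3:67683969-67684218, minus strand): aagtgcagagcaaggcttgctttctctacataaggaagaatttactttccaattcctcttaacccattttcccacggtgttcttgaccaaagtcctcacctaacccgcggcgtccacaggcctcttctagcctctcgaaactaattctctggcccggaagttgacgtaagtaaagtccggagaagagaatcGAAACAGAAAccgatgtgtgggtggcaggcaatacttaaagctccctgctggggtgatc
Eif2ak2 (chr6:21940904-21941153, plus strand): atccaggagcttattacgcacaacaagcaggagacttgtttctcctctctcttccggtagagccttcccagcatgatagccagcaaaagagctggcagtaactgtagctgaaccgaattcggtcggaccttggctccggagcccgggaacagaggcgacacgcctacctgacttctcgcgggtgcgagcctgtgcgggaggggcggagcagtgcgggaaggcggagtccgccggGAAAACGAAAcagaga
Bst2 (chr16:18254968-18255217, minus strand): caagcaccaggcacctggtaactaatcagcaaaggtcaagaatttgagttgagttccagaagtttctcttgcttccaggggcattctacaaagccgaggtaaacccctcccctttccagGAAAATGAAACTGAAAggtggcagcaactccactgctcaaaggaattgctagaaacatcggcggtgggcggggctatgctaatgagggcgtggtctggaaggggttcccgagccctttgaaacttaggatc
Nfkbia (chr6:78597073-78597322, minus strand): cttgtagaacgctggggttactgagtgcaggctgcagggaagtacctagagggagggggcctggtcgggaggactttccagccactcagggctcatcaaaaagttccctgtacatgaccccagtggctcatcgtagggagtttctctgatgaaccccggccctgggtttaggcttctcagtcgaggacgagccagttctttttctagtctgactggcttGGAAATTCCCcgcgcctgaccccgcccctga
In Ifih1, Eif2ak2 and Bst2, the capitals mark GAAANNGAAA, the core of the interferon-stimulated response element. It began 59 bases before the start in Ifih1 and 16 bases before it in Eif2ak2. In Bst2 a pair of overlapping matches began 131 and 125 bases before the start. Irf7, also searched, had a match 69 bases before its start, and none was recorded for Irf9. In Nfkbia the capitals mark the NF-kB consensus, 31 bases before the start. Both motifs were searched on both strands of 300-base windows that reached 50 bases past the start. A window was found for 8 of the 10 members, and not for Ddx58 and Ticam1. The response element core was in 2 of these 8 (Ifih1 and Eif2ak2), against 3.92% of 33469 promoters. The NF-kB consensus was in 3 of the 8 (Irf3, Nfkb1 and Nfkbia), against 4.18% of promoters. A match is a description of the letters and not a measured binding site.

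All 9 genes were above the deposited offset of 0.0001 in all 24 pups, but their levels lay far apart. Levels are given in TPM as deposited, which here behave as reads divided by the genomic span of a gene. Their order is therefore not an order of transcript abundance. Nfkb1, with a span of 116153 bases, had a median of about 592 estimated reads per pup. Nfkbia, with 3464 bases, had about 611. Irf3 had the highest deposited level, with a median of 8.37 TPM over all pups, and 91.9% of the 13786 genes tested were lower. Nfkbia followed at a median level of 4.04 TPM. Mavs (0.672 TPM) and Tbk1 (0.586 TPM) had overlapping ranges near the middle of the genes tested. Eif2ak2 (0.226 TPM) lay below both without overlap. Nfkb1 (0.101 TPM) and Tlr3 (0.0674 TPM) overlapped each other. The RNA helicases had the lowest deposited levels, with medians of 0.0306 TPM for Ddx58 and 0.0243 TPM for Ifih1, and their ranges overlapped. The sensors also varied most between pups. The coefficient of variation over 24 pups was 31.9% for Tlr3, 24.1% for Ddx58 and 20.4% for Ifih1, against 8.36% for Irf3. Depth was estimated at 25000000 to 65000000 reads per pup, which gave a median of about 54.8 reads per pup for Tlr3, 55.7 for Ifih1 and 68.9 for Ddx58, against 1773 for Irf3. Counting error alone at these medians would be 13.5% for Tlr3, 13.4% for Ifih1 and 12.1% for Ddx58. The measured variation of these 3 sensors was larger than that counting error.

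The pups whose sample name ends in 3 stood apart as libraries. On the first principal component of 5086 abundant genes (26.2% of the variance, group means removed), all 8 of them lay above 0, whereas 14 of the other 16 pups lay below 0. Each group held 2 such pups, and the labels do not say what the number stands for. Values without these 8 pups are therefore given beside the comparisons.

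**Figure D1:**
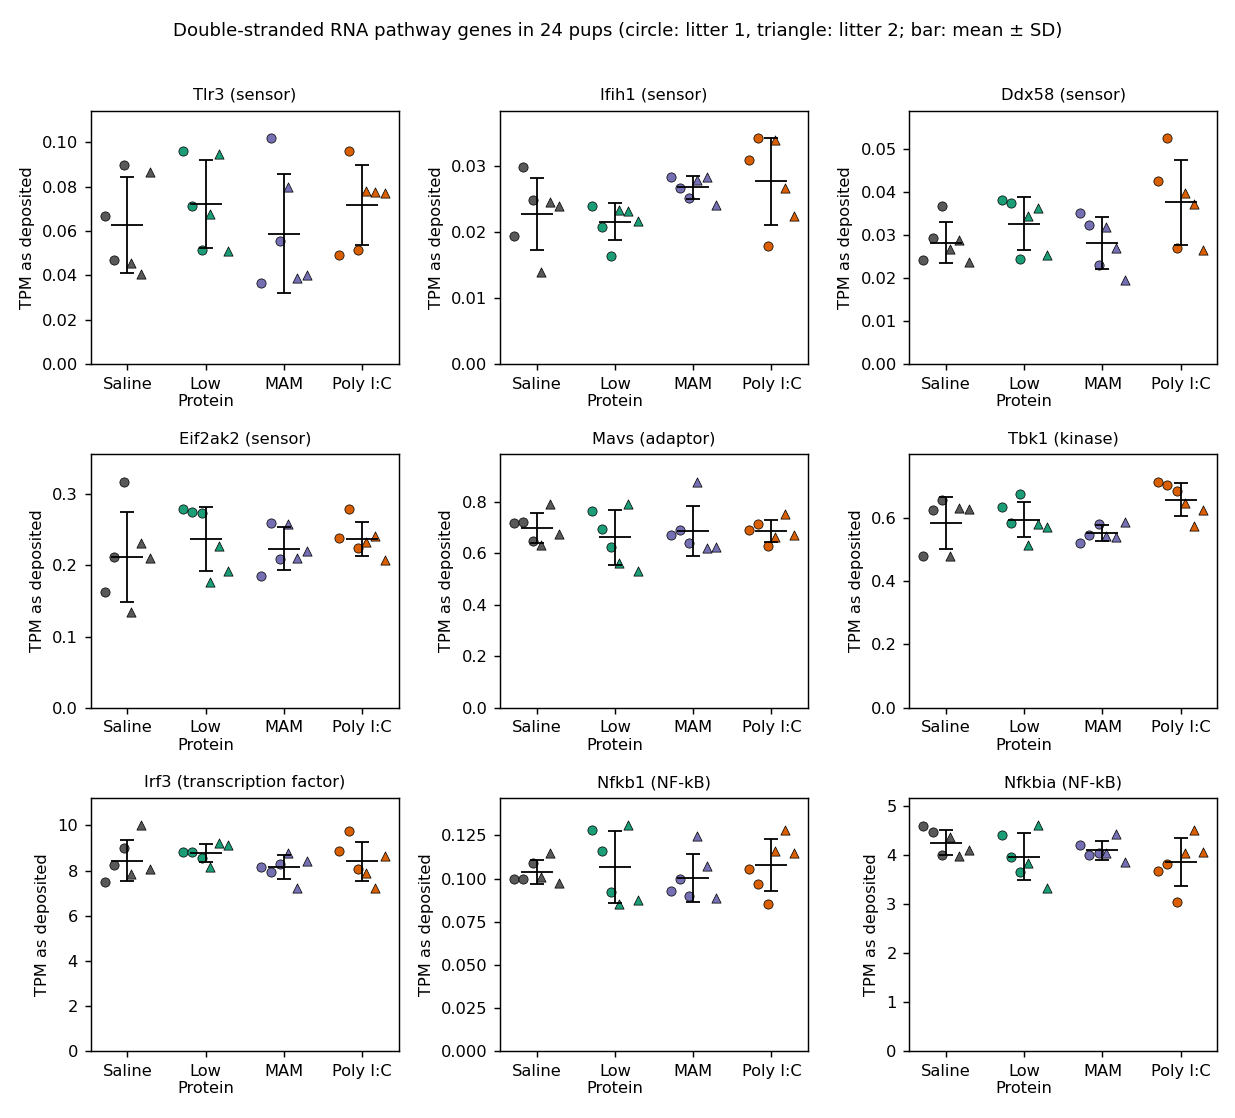
Deposited TPM of each of the 9 genes (vertical axes, linear from 0) by treatment group (horizontal axes); circles are pups of litter 1, triangles pups of litter 2, and bars mean ± SD of 6 pups. The groups overlapped for every gene; 4 of 6 Poly I:C pups lay above all saline pups for Ddx58, and 5 of 6 lay above all MAM pups for Tbk1.

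The first question was whether maternal Poly I:C changed the fetal expression of the machinery that detects it. None of the 9 genes passed an adjusted p under 0.05 in Poly I:C pups relative to saline (limma, Benjamini-Hochberg), and neither did any of the 13786 genes tested (0%). At an unadjusted p under 0.05, 2 of 9 members (22.2%), Ddx58 and Tbk1, were higher and 0 were lower. Of all genes tested 9.07% were called in this way, 3.82% higher and 5.25% lower. The log2 fold change was above 0 in 6 of 9 members, against 50.6% of all genes, with a median of 0.18. The 2 groups overlapped for all 9 members, and 0.421% of all genes had groups that did not. Without the pups numbered 3, 4 of 9 members were higher (Ddx58, Ifih1, Eif2ak2 and Tbk1), 0 passed the adjusted test, and 10.3% of all genes were called. The plot of log2 fold changes with their intervals shows all 4 comparisons side by side.

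Ddx58, the RIG-I sensor of short, uncapped double-stranded RNA, ranged from 0.0237 to 0.0367 TPM in saline pups (median 0.0278) and from 0.0266 to 0.0526 TPM in Poly I:C pups (median 0.0385). It ranged from 0.0196 to 0.0353 TPM in MAM (median 0.0294) and from 0.0244 to 0.0381 TPM in Low Protein (median 0.0353). Thus 4 of 6 Poly I:C pups lay above every saline pup, and the other 2 lay within the saline range. The log2 fold change in Poly I:C relative to saline was 0.39 (SE 0.18, 95% interval 0.02 to 0.75, limma adjusted p = 0.529). The exact two-sided permutation test of 6 pups against 6 gave p = 0.0628. Both Poly I:C litters had higher mean levels (0.0408 and 0.0345 TPM) than both saline litters (0.0301 and 0.0264 TPM). With 2 litters per group this order is weak evidence, and the share of all genes with such an order was not computed. The log2 fold change was 0.28 without Poly I:C pup 1.2, the highest of all pups, and 0.49 without Poly I:C litter 2. Both Poly I:C pups within the saline range were numbered 3, and without the pups numbered 3 in all groups the log2 fold change was 0.65 (limma adjusted p = 0.341). The unadjusted p was no longer under 0.05 when any one of Poly I:C pups 1.1, 1.2, 2.1 or 2.2, saline pups 1.1, 2.1 or 2.3, Poly I:C litter 1 or saline litter 2 was left out, with values of 0.28 to 0.38.

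Ifih1, the MDA5 sensor of long double-stranded RNA, ranged from 0.0139 to 0.0299 TPM in saline (median 0.0243), 0.0179 to 0.0343 TPM in Poly I:C (median 0.0288), 0.0241 to 0.0284 TPM in MAM (median 0.0273) and 0.0163 to 0.0239 TPM in Low Protein (median 0.0224). Of the Poly I:C pups, 3 of 6 lay above all saline pups and the other 3 within their range. Relative to saline the log2 fold change was 0.29 (SE 0.16, limma adjusted p = 0.626), with a 95% interval from -0.06 to 0.63. It was 0.15 without saline pup 2.1 or saline litter 2, 0.42 without saline litter 1, 0.40 without Poly I:C pup 1.3 and 0.57 without the pups numbered 3. Tlr3, the endosomal receptor, ranged from 0.0405 to 0.0898 TPM in saline (median 0.0570) and from 0.0489 to 0.0961 TPM in Poly I:C (median 0.0773). Its range was 0.0367 to 0.102 TPM in MAM (median 0.0479) and 0.0511 to 0.0960 TPM in Low Protein (median 0.0695). These ranges overlapped over most of their length, and the interval of the log2 fold change in Poly I:C (0.22) ran from -0.34 to 0.78. Leaving out a litter gave 0.06 (without Poly I:C litter 2) to 0.38 (without Poly I:C litter 1), and leaving out the pups numbered 3 gave 0.57. Eif2ak2 ranged from 0.135 to 0.318 TPM in saline (median 0.211), 0.208 to 0.279 TPM in Poly I:C (median 0.235), 0.184 to 0.260 TPM in MAM (median 0.215) and 0.177 to 0.280 TPM in Low Protein (median 0.250). All Poly I:C values lay within the saline range, with a log2 fold change of 0.21 (95% interval -0.12 to 0.55). This was 0.09 without saline pup 2.1 or saline litter 2, 0.34 without saline pup 1.3 or saline litter 1 and 0.45 without the pups numbered 3.

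Downstream of the sensors, the adaptor Mavs ranged from 0.631 to 0.789 TPM in saline (median 0.696), 0.628 to 0.753 TPM in Poly I:C (median 0.680), 0.620 to 0.878 TPM in MAM (median 0.654) and 0.532 to 0.791 TPM in Low Protein (median 0.660). The 95% interval of its log2 fold change in Poly I:C (-0.02) was -0.22 to 0.18. Irf3, the transcription factor, ranged from 7.51 to 10.0 TPM in saline (median 8.16), 7.22 to 9.73 TPM in Poly I:C (median 8.36), 7.23 to 8.79 TPM in MAM (median 8.23) and 8.18 to 9.23 TPM in Low Protein (median 8.82). Its log2 fold change in Poly I:C was -0.01, with the narrowest interval of the 9 genes (-0.16 to 0.14). For both genes the Poly I:C and saline ranges overlapped over most of their length, and the sign of these small log2 fold changes turned when single pups or litters were left out.

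Tbk1, the kinase on which both routes converge, ranged from 0.477 to 0.656 TPM in saline (median 0.625), from 0.573 to 0.714 TPM in Poly I:C (median 0.665), from 0.520 to 0.587 TPM in MAM (median 0.544) and from 0.515 to 0.674 TPM in Low Protein (median 0.582). The 3 highest pups of all 24 were those of Poly I:C litter 1 (0.685 to 0.714 TPM), while Poly I:C litter 2 (0.573 to 0.645 TPM) overlapped saline. Among the saline pups, pup 1.1 (0.478 TPM) and pup 2.1 (0.477 TPM) were low and the other 4 lay at 0.625 to 0.656 TPM. Relative to saline the log2 fold change was 0.18 (SE 0.08, limma adjusted p = 0.525), and the exact permutation test gave p = 0.115. Without Poly I:C litter 1 the log2 fold change was 0.09, and without Poly I:C litter 2 it was 0.28. Without either low saline pup it was 0.13, and without the pups numbered 3 it was 0.26. Its unadjusted p was no longer under 0.05 without any one of these 2 saline pups, the 3 pups of Poly I:C litter 1, that litter, or either litter of saline or MAM.

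**Figure D2:**
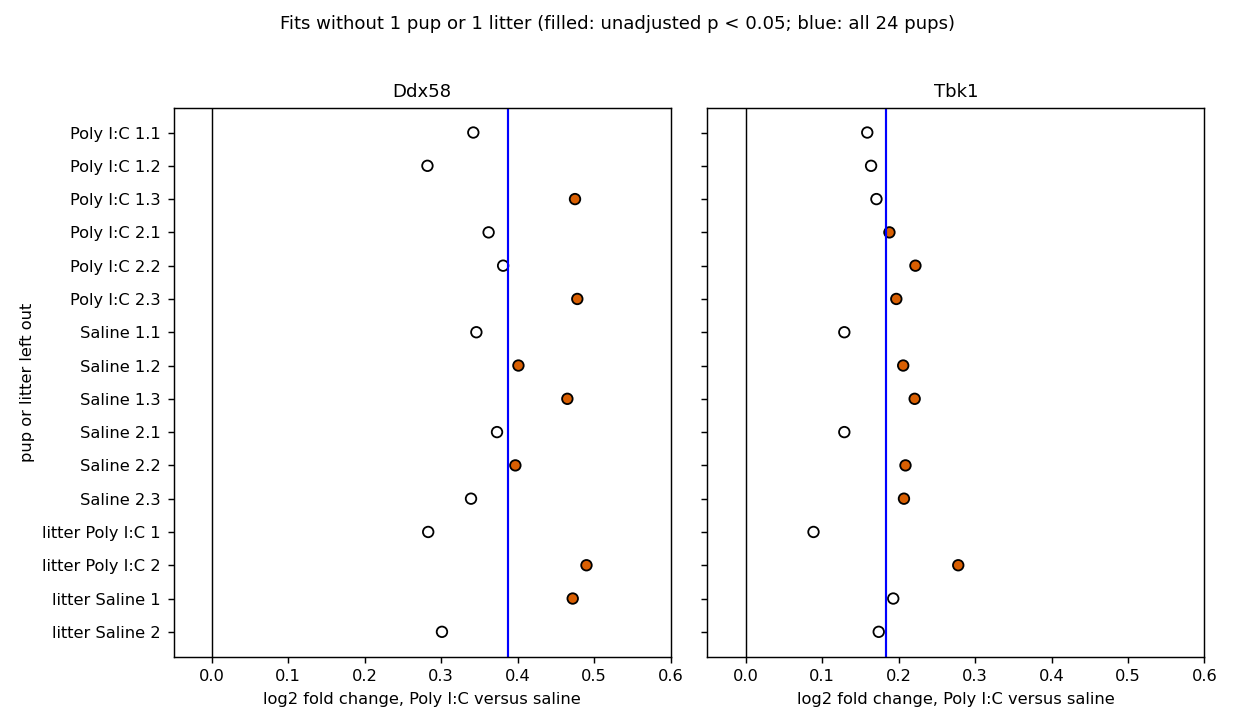
log2 fold change of Ddx58 and Tbk1 in Poly I:C relative to saline (horizontal axes) when each saline or Poly I:C pup or litter named on the vertical axis was left out; filled points have an unadjusted p under 0.05 by limma and the blue line is the fit of all 24 pups. All values stayed above 0, from 0.28 to 0.49 for Ddx58 and from 0.09 to 0.28 for Tbk1, with Poly I:C litter 1 and litter 2 at the ends for Tbk1.

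In the NF-kB arm, Nfkb1 ranged from 0.0973 to 0.115 TPM in saline (median 0.101), 0.0856 to 0.128 TPM in Poly I:C (median 0.110), 0.0886 to 0.125 TPM in MAM (median 0.0963) and 0.0851 to 0.131 TPM in Low Protein (median 0.104). Nfkbia ranged from 3.98 to 4.59 TPM in saline (median 4.23), 3.03 to 4.50 TPM in Poly I:C (median 3.93), 3.86 to 4.43 TPM in MAM (median 4.04) and 3.33 to 4.60 TPM in Low Protein (median 3.90). The Poly I:C litters were split for both genes. In litter 1, Nfkbia was 3.03 to 3.81 TPM and Nfkb1 0.0856 to 0.106 TPM, whereas in litter 2 they were 4.05 to 4.50 TPM and 0.115 to 0.128 TPM, with no overlap between litters. Such a split was not particular to these genes: Tbk1 in Poly I:C, and Eif2ak2 and Tbk1 in Low Protein, also had litters without overlap. The share of all genes with such a split was not computed. Relative to saline, the log2 fold change of Nfkbia was -0.15 (SE 0.08, limma adjusted p = 0.607) and that of Nfkb1 was 0.05 (95% interval -0.19 to 0.29). For Nfkbia it was -0.28 without Poly I:C litter 2 (adjusted p = 0.925), -0.02 without Poly I:C litter 1 and -0.08 without Poly I:C pup 1.3. For Nfkb1 it was -0.11 without Poly I:C litter 2 and 0.21 without Poly I:C litter 1.

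MAM and Low Protein served as prenatal disruptions without a double-stranded RNA. They were compared with the same 6 saline pups, so the 3 comparisons are not independent. No injection is listed for the Low Protein dams, unlike the saline dams, and the diet of the saline dams was not spelled out. In MAM pups 0 of 9 genes passed the adjusted test (0.0145% of all genes did) and 0 of 9 had an unadjusted p under 0.05 (9.67% of all genes did, 2.17% higher and 7.5% lower). The log2 fold change was above 0 in 2 of 9 genes, Ifih1 and Eif2ak2, against 29.9% of all genes. All genes tested had a median of -0.07, and the 9 genes one of -0.05. The log2 fold changes ran from -0.13 for Tlr3 (95% interval -0.70 to 0.43) to 0.27 for Ifih1 (95% interval -0.07 to 0.61). The values of -0.07 for Tbk1, -0.02 for Ddx58, -0.03 for Mavs, and -0.05 for Irf3, Nfkb1 and Nfkbia turned positive under at least one other scaling of the pups. In Low Protein pups 0 of 9 genes passed the adjusted test (0% of all genes did) and 0 of 9 the unadjusted threshold (7.09% of all genes did, 2.76% higher and 4.34% lower). Of the 9 genes, 6 had a log2 fold change above 0, against 45.3% of all genes. There the log2 fold changes ran from -0.11 for Nfkbia to 0.23 for Tlr3, and the log2 fold change of Ddx58 was 0.20 (95% interval -0.17 to 0.57). Without the pups numbered 3, the log2 fold change of Ddx58 was 0.42 in Low Protein and 0.21 in MAM, that of Tlr3 was 0.73 and 0.25, and none passed the adjusted test. At the unadjusted threshold Ddx58 and Tlr3 were then higher in Low Protein and Ifih1 in MAM (8.69% and 3.85% of all genes were called). Side by side, the log2 fold changes of Ddx58 were 0.39 in Poly I:C, -0.02 in MAM and 0.20 in Low Protein, and those of Tbk1 were 0.18, -0.07 and 0.03, none past the adjusted threshold.

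**Figure D3:**
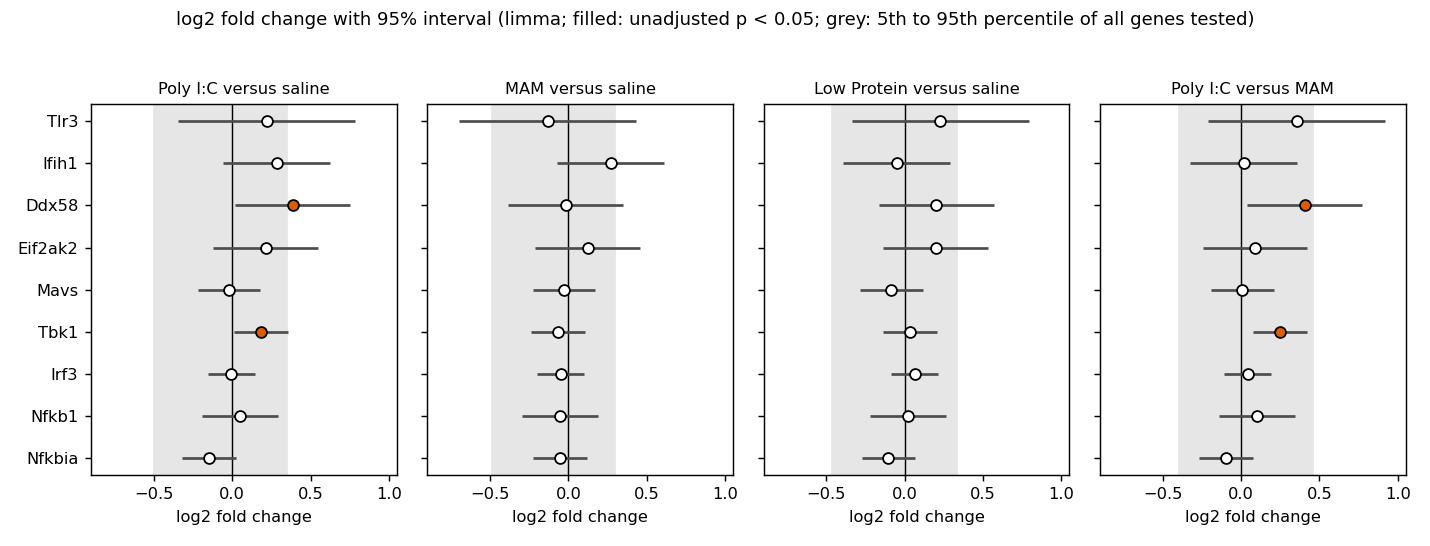
log2 fold change (horizontal axes) of the 9 genes (vertical axis) in 4 comparisons, with 95% intervals from limma; filled points have an unadjusted p under 0.05 and the grey band spans the 5th to 95th percentile of all 13786 genes tested. Ddx58 and Tbk1 are the filled points in both comparisons with Poly I:C, and none is filled in MAM or Low Protein.

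Poly I:C was also compared directly with MAM, the other agent given on gestational day 17. Saline was given on that day as well. Here 0 of 9 genes passed the adjusted test (0.646% of all genes did), and 2 of 9 were higher at an unadjusted p under 0.05 (17.4% of all genes were called, 13.8% higher and 3.63% lower). Of the 9 members, 8 had a log2 fold change above 0, against 63.4% of all genes, but the values of 0.02 for Ifih1, 0.01 for Mavs and 0.04 for Irf3 turned negative under other scalings. All 6 Poly I:C pups lay above the MAM median for Tbk1, and 5 of 6 above every MAM pup. The log2 fold change of Tbk1 was 0.25 (SE 0.08, limma adjusted p = 0.129). The exact permutation test gave p = 0.00649, the only one of 36 such tests under 0.05. That test was run on the 9 members only, so no share over all genes stands beside this count. For Ddx58 the log2 fold change was 0.40 (SE 0.18, limma adjusted p = 0.231), and the exact permutation test gave p = 0.0801. All genes shifted here by a median log2 fold change of 0.06, and under upper quartile scaling the log2 fold change of Tbk1 was 0.17 (limma adjusted p = 0.326). Without Poly I:C litter 1 it was 0.15. Without the pups numbered 3, the log2 fold changes were 0.29 for Tbk1 and 0.44 for Ddx58, and 15.9% of all genes were called. The unadjusted p of Ddx58 was no longer under 0.05 without any one of MAM pups 1.3 or 2.3, Poly I:C pups 1.1, 1.2 or 2.1, MAM litter 2 or Poly I:C litter 1. Across the 4 groups together, the moderated F test passed for 0 of 9 genes after adjustment (0.167% of all genes passed), and the lowest p among the 9 was that of Tbk1 (limma adjusted p = 0.402), with 12.1% of all genes under 0.05.

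The wider pathway was read from 7 lists with 105 genes, of which 97 were in the table and 91 were tested. In Poly I:C relative to saline, 0 of 91 passed the adjusted test. At an unadjusted p under 0.05, 8 were higher and 2 lower (11.0%, against 9.07% of all genes), and 62 had a log2 fold change above 0. Bst2 (tetherin, an interferon-induced membrane protein that holds back budding virus) had the lowest p. It ranged from 0.320 to 0.583 TPM in saline (median 0.380), 0.402 to 1.22 TPM in Poly I:C (median 0.914), 0.275 to 0.471 TPM in MAM (median 0.396) and 0.280 to 0.562 TPM in Low Protein (median 0.322). Thus 4 of 6 Poly I:C pups lay above all saline pups. Its log2 fold change was 0.97 (SE 0.24, limma adjusted p = 0.231). Over the alternatives the adjusted p ran from 0.0140 without Poly I:C litter 1 (log2 fold change 1.27), the only one under 0.05, to 0.925 without Poly I:C litter 2 (log2 fold change 0.68). Without Poly I:C litter 1, 192 of all 13786 genes passed the adjusted test, against 0 with all pups. The unadjusted share of all genes was then 17.5%, so this pass was not particular to Bst2. Without the pups numbered 3 the log2 fold change of Bst2 was 1.32.

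Several other genes were also higher at this unadjusted threshold. Irf7, the factor that amplifies interferon transcription, had a median level of 0.261 TPM in Poly I:C and 0.114 TPM in saline (log2 fold change 0.93, SE 0.36, limma adjusted p = 0.438). Usp18, a protease that restrains interferon signalling, had a median level of 0.0207 TPM against 0.0102 TPM (log2 fold change 0.94, SE 0.36, limma adjusted p = 0.438), and 5 of 6 Poly I:C pups lay above all saline pups. Irf9, an interferon regulatory factor that binds the response element, had a log2 fold change of 0.29 (limma adjusted p = 0.357). Ddit3 (CHOP), a stress-induced factor downstream of eIF2 kinases, had a log2 fold change of 0.31 (SE 0.09, limma adjusted p = 0.351). It was 1.22 to 1.43 TPM in Poly I:C and 0.902 to 1.37 TPM in saline. The log2 fold changes of the RNA helicase Ddx21 and of the interferon regulatory factor Irf2 were 0.19 and 0.26. The 2 lower genes were Ifngr2, a chain of the interferon-gamma receptor (log2 fold change -0.22, SE 0.06, limma adjusted p = 0.351), and Bcl3, an NF-kB cofactor with levels of 0.00530 to 0.0276 TPM in these groups. Ifngr2 was 1.22 to 1.61 TPM in Poly I:C and 1.58 to 1.86 TPM in saline, with 4 of 6 Poly I:C pups below all saline pups. Genes other than Bst2, Ddit3 and Ifngr2 were named here after their values had been seen.

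By list, the induced targets had the highest median log2 fold change in Poly I:C (0.32), but only 1 of 14 tested was called, namely Bst2 (7.14%, against 9.07% of all genes). Ifnb1, the interferon that this pathway produces, was at the offset in all 24 pups. Among the other double-stranded RNA binding proteins 1 of 18 was called (Ddx21), among the kinases and interferon regulatory factors 3 of 13 (Irf2, Irf7 and Irf9), and in the interferon receptor pathway 3 of 10. These are 5.56%, 23.1% and 30% of the genes tested in each list, against 9.07% of all genes. In the interferon receptor pathway 2 were higher and 1 (Ifngr2) lower, with a list median log2 fold change of -0.005. Among adaptors and upstream ligases 0 of 18 were called at an unadjusted p under 0.05 by limma, and their median log2 fold change was 0.05. In the eIF2 kinase pathway 1 of 9 and among NF-kB subunits and inhibitors 1 of 9 were called (11.1% each).

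**Figure D4:**
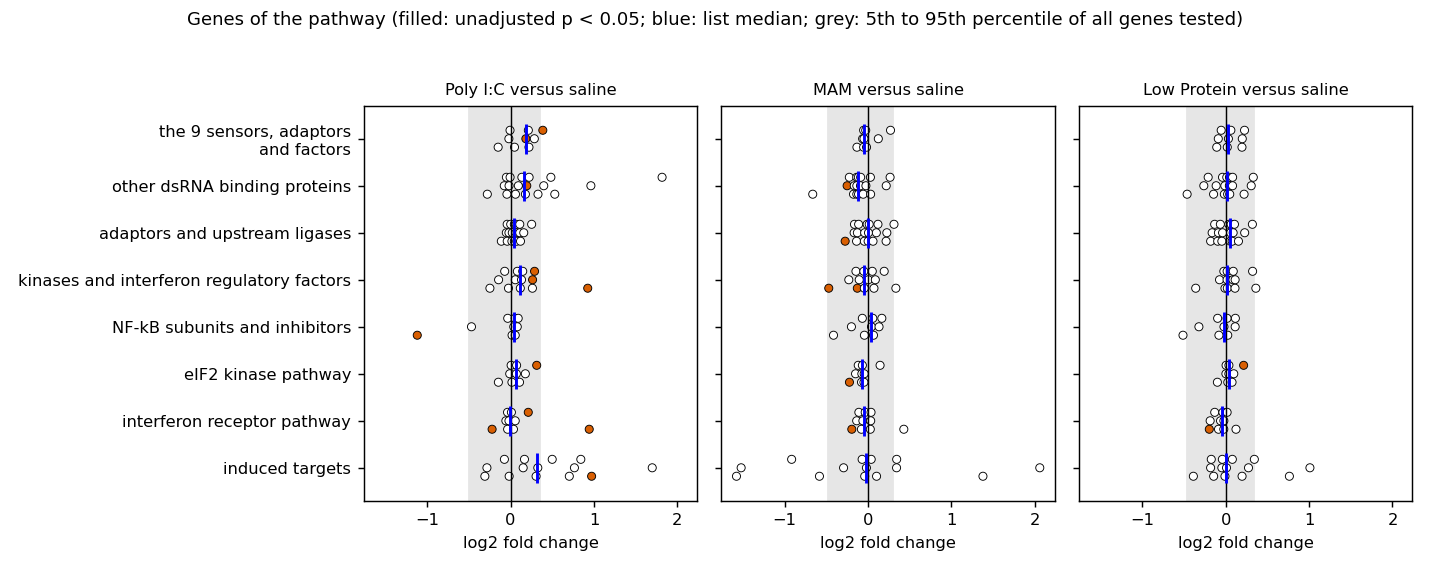
log2 fold change relative to saline (horizontal axes) of the 9 genes and of 91 other genes in 7 pathway lists (vertical axis) in Poly I:C, MAM and Low Protein; filled points have an unadjusted p under 0.05 by limma, blue marks are list medians and the grey band spans the 5th to 95th percentile of all genes tested. In Poly I:C the filled points to the right include Bst2, Irf7 and Usp18 near 0.9 to 1.0, and the median of the induced targets is 0.32 against -0.03 in MAM and 0.00 in Low Protein.

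In MAM relative to saline, 0 of the 91 genes were higher and 6 lower at an unadjusted p under 0.05 (6.59%, against 9.67% of all genes), and 0 passed adjustment. The lowest p values belonged to Atf4, the translationally controlled stress factor (log2 fold change -0.22, SE 0.06, adjusted p = 0.456), Jak1, the kinase bound to interferon receptors (-0.19, adjusted p = 0.511), and Irf8, a factor of myeloid cells (-0.47, adjusted p = 0.515), all by limma. All 6 MAM pups lay below every saline pup for Atf4 (56.4 to 60.6 against 66.4 to 71.5 TPM), and 0.856% of all genes had groups that did not overlap. The count depended on scaling: under median of ratios scaling 5 genes were higher and 3 lower. In Low Protein, 1 of 91 was higher and 1 lower (2.20%, against 7.09% of all genes). These were Ddit3 (log2 fold change 0.22, limma adjusted p = 0.688) and Ifngr2 (-0.19, adjusted p = 0.661). The next lowest p was that of Irf5, an interferon regulatory factor (0.36, adjusted p = 0.729). Ddit3 and Ifngr2 were also among the 3 lowest p in Poly I:C, against the same saline pups. None of these passed adjustment (0 of 91).

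Against MAM, 21 of the 91 genes were higher and 1 lower in Poly I:C at an unadjusted p under 0.05 (24.2%, against 17.4% of all genes, 13.8% higher and 3.63% lower). The direction over all genes depended on scaling. As deposited, 1897 were higher and 501 lower, against 1117 and 1074 under median of ratios scaling and 842 and 1314 under upper quartile scaling. Only 1 of the 91 passed the adjusted test and rose, the RNA helicase Ddx21, which was singled out after its values were seen. It ranged from 4.01 to 4.30 TPM in Poly I:C and from 2.95 to 3.55 TPM in MAM, without overlap (3.11% of all genes had groups that did not overlap). Its log2 fold change was 0.33 (SE 0.07, limma adjusted p = 0.0341), with 0.26 and an adjusted p of 0.0508 under upper quartile scaling and an adjusted p of 0.485 with litter means as replicates. Its adjusted p was also above 0.05 without the pups numbered 3 (0.153), without any one litter of either group (up to 0.267) and without any one of 10 of these 12 pups (up to 0.109), at log2 fold changes of 0.30 to 0.36. Bst2 had a log2 fold change of 1.01 (SE 0.24, adjusted p = 0.0508 by limma), with 5 of 6 Poly I:C pups above all MAM pups. By list, 7 of 18 other double-stranded RNA binding proteins and 4 of 9 genes of the eIF2 kinase pathway were higher at the unadjusted threshold. Of all genes 13.8% were, and all genes had shifted by 0.06.

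As a description over 24 pups that share libraries and scaling, Pearson's r of log2 levels was 0.75 between Mavs and Nfkb1, 0.68 between Eif2ak2 and Tbk1, 0.57 between Nfkb1 and Nfkbia, and 0.53 between the helicases Ifih1 and Ddx58. With group means removed, these were 0.79, 0.74, 0.69 and 0.64. At the other end, Tbk1 and Nfkbia had r = -0.47. Among all genes tested, the pattern most like Ddx58 was that of Parp14, an interferon-inducible ADP-ribosyltransferase (r = 0.88), followed by Pabpc4 and Tpp1. Ifih1 was most like Alkbh5 (r = 0.75), followed by another row, whose name had turned into a date (r = 0.72). Oas1b (r = 0.72), a member of the oligoadenylate synthetase family that binds double-stranded RNA, came next. Tlr3 was most like MGC108823 (r = 0.77), Itm2a and Zdhhc15, and Eif2ak2 like Npat (r = 0.87), Parn and Snx13. Tbk1 was most like Rbl2 (r = 0.88), Pus3 and Prpf4b, Mavs like Med24 (r = 0.83), Rnpepl1 and Mylip, and Irf3 like Thg1l (r = 0.80), Dclre1a and Surf2. Nfkb1 was most like Txndc5 (r = 0.89), Gypc and Clec14a, and Nfkbia like Hlx (r = 0.85), Grasp and Tgm2.

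Several of these genes are used by microglia, vessels and meninges as well as by neurons, and in bulk tissue fewer cells of a type and less RNA per cell cannot be told apart. Markers of the labelled tissue were present, with 8 of 10 pallium markers in the table and sums of 206 to 413 TPM per pup. The summed level of 10 microglia markers, none of them at the offset in any pup, was 12.4 to 15.7 TPM in saline, 12.0 to 18.3 TPM in Poly I:C, 15.3 to 19.8 TPM in MAM and 10.1 to 25.4 TPM in Low Protein. At an unadjusted p under 0.05 by limma, 0 of 10 microglia, 0 of 7 endothelial and 0 of 6 meningeal markers were called in Poly I:C, and 3 of 10 microglia markers were higher in MAM (2.17% of all genes were). Of 7 subpallium markers, 0 were called in Poly I:C, 3 were lower in MAM (7.5% of all genes were) and 5 were lower in Low Protein (4.34% of all genes were). Of the other marker lists, 0 of 5 choroid plexus and 0 of 4 blood genes were called in these comparisons. The median log2 fold change of the blood genes in Poly I:C was 0.20 and that of the choroid plexus genes in MAM was -0.39. Of 8 pallium markers, 1 was called in Poly I:C, 0 in MAM and 2 in Low Protein. The part of these cell types in the values above was not tested.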

How the data were processed

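RNA was measured in hippocampus and neocortex of 24 pups, and groups and litters were read from the sample names and treatment labels. The members and gene lists were chosen with earlier results of these data known. The authors trimmed reads at phred 30 with a minimum length of 25, aligned them to rn6 with STAR (version 2.4.1d in the submitters' processing notes), quantified RefSeq transcripts in Partek and deposited TPM values with an offset of 0.0001. Each column sums to 70350.1 and values behave as reads divided by genomic span, so they do not rank genes by abundance. Levels are therefore TPM as deposited, and no counts were given. Reads per pup were estimated from the steps between low values times GRCr8 spans (multiples up to 8, tolerance 0.05), and are approximate.

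The log2 of the deposited value was compared with limma (version 3.58.1, R version 4.3.3) in a fit of all 24 pups with group as the factor, for genes above the offset in at least 12 pups, with Benjamini-Hochberg adjustment over 13786 genes. Fold changes of low genes depend on the offset. Exact two-sided permutation tests used 924 splits, with a smallest p of 0.00216. The fit was tested on simulated data. Named genes were the members, the pathway genes with an adjusted p under 0.05 or otherwise the 3 lowest p against saline, and the 3 genes most correlated with each member. Alternatives were filters, pseudocounts (0.01 and 1), scalings, litter and number blocks, litter means and leaving out pups, litters or the pups numbered 3. One gene of the pathway lists is counted but not reported here by name.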

Additional observations from a re-analysis of the deposited data

Results flagged for a closer look

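Mavs in MAM pup 2.1 was 0.878 TPM (0.8776 as deposited), the highest of all 24 pups. Its gap to the next MAM pup was 0.701 of the range of that group on the log2 scale, above Dixon's 95% critical value of 0.625 for 6 samples. Of 36 gene and group combinations examined 1 was beyond that value, and chance gives about 1 in 20. Without this pup the log2 fold change of Mavs in MAM relative to saline was -0.10, against -0.03 with it.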

How the results depend on the processing

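Under 47 alternatives, 0 of 1656 recomputed log2 fold changes of the 9 genes passed the adjusted threshold, and the lowest adjusted p by limma was 0.0698 (Tbk1, Poly I:C against MAM, with only the 12 pups compared). The direction turned in 82. The numbers of pups and litters limit what could be seen, and with 2 litters per group litter and treatment can hardly be separated.

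At an unadjusted p under 0.05, members higher in Poly I:C relative to saline and to MAM were 2 and 2. Both counts became 0 with the filter of the paper, which left out all but Irf3 and Nfkbia, and 1 and 1 with a mean of at least 0.05, which left out Ddx58 and Ifih1, with only the 12 pups compared, and under upper quartile scaling. Upper quartile scaling also gave 1 lower in each. Under it 367 of all genes were higher and 1083 lower relative to saline, against 527 and 724 as deposited. Relative to MAM these were 842 and 1314, against 1897 and 501. The shares of all genes called in the 2 comparisons were 9.95% and 23.1% with the filter of the paper. They were 9.78% and 20.6% with the mean of at least 0.05, and 7.25% and 17.6% with only the 12 pups compared. The higher count in MAM was 1 under median of ratios, upper quartile and median shift scaling, while all genes higher in MAM went from 299 to 676, 614 and 681. Exact tests under 0.05 numbered 1, and 3 under median of ratios and upper quartile scaling, and were run on the members only. In MAM relative to saline, median of ratios scaling turned the log2 fold change of Ddx58 to 0.047, Irf3 to 0.016, Mavs to 0.037, Nfkb1 to 0.012 and Nfkbia to 0.012. Upper quartile scaling gave 0.036, 0.0051, 0.026, 0.000982 and 0.000821, and the median shift, chosen after seeing the data, gave 0.048, 0.017, 0.038, 0.013 and 0.013, with Tbk1 at 0.0012. In Poly I:C relative to MAM the 3 scalings gave -0.048, -0.060 and -0.049 for Ifih1, -0.022, -0.033 and -0.023 for Irf3, and -0.056, -0.068 and -0.057 for Mavs. Without the 8 pups numbered 3, chosen after seeing the data, 4 members were higher in Poly I:C relative to saline, 1 in MAM and 2 in Low Protein. Of all genes 10.3%, 3.85% and 8.69% were called in these comparisons. The log2 fold change of Irf3 in Poly I:C then turned to 0.00429, in MAM that of Ddx58 to 0.208, Nfkb1 to 0.0242 and Tlr3 to 0.249, in Low Protein that of Ifih1 to 0.11, and relative to MAM that of Mavs to -0.00739.

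Leaving out a pup or litter gave 0 to 3 members higher and 0 to 1 lower in Poly I:C relative to saline. Relative to MAM it gave 0 to 2 higher and 0 to 1 lower. It gave 0 to 1 higher in MAM and in Low Protein, and 1 to 3 exact tests under 0.05. The share of all genes called moved as well. It ran from 4.77% to 17.5% in Poly I:C relative to saline and from 10.7% to 19.9% relative to MAM. In MAM it ran from 3.57% to 13.2%, and in Low Protein from 4.2% to 8.97%. The log2 fold changes whose sign turned ran as follows. In Poly I:C relative to saline they ran from -0.0895 to 0.0768 for Irf3, -0.048 to 0.017 for Mavs and -0.11 to 0.21 for Nfkb1. Relative to MAM they ran from -0.053 to 0.13 for Ifih1, -0.026 to 0.081 for Mavs, -0.041 to 0.13 for Irf3, -0.23 to 0.037 for Nfkbia and -0.06 to 0.26 for Nfkb1. In MAM they ran from -0.13 to 0.0903 for Ddx58, -0.082 to 0.0014 for Irf3, -0.10 to 0.0087 for Mavs, -0.14 to 0.032 for Nfkb1 and -0.32 to 0.0045 for Tlr3. In Low Protein they ran from -0.061 to 0.10 for Nfkb1, -0.19 to 0.086 for Ifih1, -0.059 to 0.13 for Tbk1 and -0.045 to 0.44 for Eif2ak2. The cause was not tested.

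The sample names share numbers across groups. Over all genes tested, the deviations of pups with the same litter and pup number had at most 1 of 6 correlations over 0.1 per comparison (highest 0.117), so the full numbers were not taken to pair the pups. The pups whose number ends in 3 nonetheless lay on one side of the first component of abundant genes. With the replicate number as a block, the members called were unchanged in number in every comparison (0 adjusted, and 2 higher in Poly I:C), with a limma adjusted p = 0.340 for Ddx58 and adjusted p = 0.422 for Tbk1 in Poly I:C relative to saline. A block on the last digit of the name alone, chosen after seeing the data, gave 1 member lower in Poly I:C, Nfkbia. With that block 858 of all genes were lower in Poly I:C relative to saline, against 724 without a block.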

Other observations

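The pups numbered 3 within their litters were low for Ddx58. In Poly I:C they had 0.0266 and 0.0270 TPM against 0.0373 to 0.0526 TPM in the other 4 pups, in Low Protein 0.0244 and 0.0254 TPM against 0.0344 to 0.0381 TPM, and in MAM 0.0196 and 0.0231 TPM against 0.0269 to 0.0352 TPM. In saline they were 0.0237 and 0.0367 TPM, at both ends of the group. Over 9 genes and 4 groups (36 combinations), both pups numbered 3 were below the other 4 pups in 9 and above them in 2. Ifih1 was low in this way in MAM and Poly I:C. The same count was not made over all genes tested, and the 9 genes share the same libraries. The counts are therefore not a result about these 9 genes. These pups also stood apart over abundant genes in all 4 groups, saline included, so the pattern was not confined to Ddx58. The source of the split was not tested.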
